A study of Mus musculus with 6 samples.

Results

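The genes described here belong to the integrated stress response and to amino acid supply, and were followed in stretched and resting mouse podocytes. A list of 39 genes of the pathway was taken by name, drawn up with earlier results of these data known, so the shares called below are no independent evidence. Of these, 37 had a probe set annotated with that single gene symbol, among 18193 genes measured in all, and the probe set with the highest mean over the 6 arrays stood for each gene. The expression of Pycr1 and Gdf15 was not analysed here.

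The cells were SVI podocytes, 1 conditionally immortalized mouse line, so the arrays speak of this line alone. All cultures had been differentiated for 1 to 2 weeks at 38 °C in RPMI medium with 10% serum. In 3 samples the cells stayed unstretched, and in the other 3 they were stretched in cycles along both axes at 0.5 Hz, with at most 5% linear strain, for 3 days. Total RNA was read on Affymetrix mouse arrays, and the series text mentions 3 independent batches. It does not state what a batch comprised, and no label ties a replicate number to a batch. A p-value here reads scatter among the 3 arrays of a group, part of which may be technical.

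The integrated stress response starts when kinases such as Gcn2, encoded by Eif2ak4, phosphorylate the translation factor eIF2. General protein synthesis then slows, while the mRNA of the transcription factor Atf4 is translated better. Atf4 and its partners raise genes for amino acid synthesis, amino acid uptake and tRNA charging, and, under lasting stress, the factor CHOP (gene Ddit3), the pseudokinase Trib3 and the phosphatase subunit Ppp1r15a, which restores translation. Atf4 is controlled largely at translation, so its mRNA level does not read its protein. In podocytes this response is best known from stress of the endoplasmic reticulum.

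Values are log2 expression values as deposited. A gene was called higher or lower where limma gave a Benjamini-Hochberg adjusted p under 0.05 over all genes, and changes are log2 differences, stretched minus unstretched, with n = 3 arrays per group. Across the arrays the mean log2 value was 5.70, and the arrays correlated with r between 0.987 and 0.997. The 3' minus 5' difference of the beta-actin control, a sign of RNA quality, was 1.57 ± 0.03 in unstretched and 1.30 ± 0.05 in stretched samples (SD, n = 3 each, log2). The 2 groups did not overlap in it (two-sided exact permutation p = 0.1, the smallest 3 against 3 arrays allow), and its part in the results below was not tested. For the Gapdh control the same difference was 0.25 ± 0.07 in unstretched and 0.16 ± 0.10 in stretched samples, and the groups overlapped (exact permutation p = 0.4). Of 13 podocyte markers measured, 9 lay above the median gene, among them Wt1, Podxl and Synpo, whereas Nphs1, Tcf21, Ptpro and Lmx1b lay below it. Of the 13, Synpo was called lower (-0.45, limma adjusted p = 0.00412) and Nes higher (0.57, limma adjusted p = 0.00182). The mean log2 value over 5 parietal epithelial markers ran from 6.46 to 6.59 on unstretched and from 6.83 to 6.89 on stretched arrays, with 3 called higher. Over 9 macrophage and leukocyte markers it ran from 5.62 to 5.71 and from 5.49 to 5.59, with 1 called higher and 2 lower, and over 8 tubular markers from 5.85 to 5.90 and from 5.98 to 6.003, with 1 called higher. All 7 endothelial markers lay below the median gene, with means of 3.89 to 3.99 and 3.81 to 3.95. Of 6 mesangial markers, 3 lay above the median gene and 1 was called higher, with means of 7.04 to 7.22 and 7.20 to 7.27. The part of such shifts in the results was not tested.

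The stress response genes changed in both directions. Ddit3, Vldlr, Stc2 and Slc1a5 fell, while Psat1, Cth, Nupr1, Slc38a2, Aldh18a1 and Eif2ak4 rose, so that 6 members were called higher, 4 lower and 27 neither. The share called was 27.0%, against 14.7% of all genes; it was 16.2% higher against 7.98%, and 10.8% lower against 6.76%. Most members are brightly expressed: 32 lay above the median gene, and of these 28.1% were called, close to the 24.8% of all genes above the median. The groups did not overlap in 14 members (37.8%), against 32.6% of all genes. The median log2 change was 0.11 over the members and -0.02 over all genes, and the median size was 0.27 against 0.13. With dim genes removed, the median log2 change of the genes left was 0.03. Members called lower numbered 3 without stretched replicate 1 and 7 without unstretched replicate 3. Of all 18193 genes, 789 and 1189 were called lower in these fits, in the same order. In 24 of the 37 members replicate 3 was the lowest array of both groups, and the latter fit kept its stretched array. Over all genes 1452 were called higher and 1229 lower, a split that became 1147 and 1546 when the arrays were quantile normalized again, with 5 members called in each direction. In bulk RNA, fewer cells of a type and less RNA per cell cannot be told apart, and RMA removes differences in overall level.

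**Figure D1:**
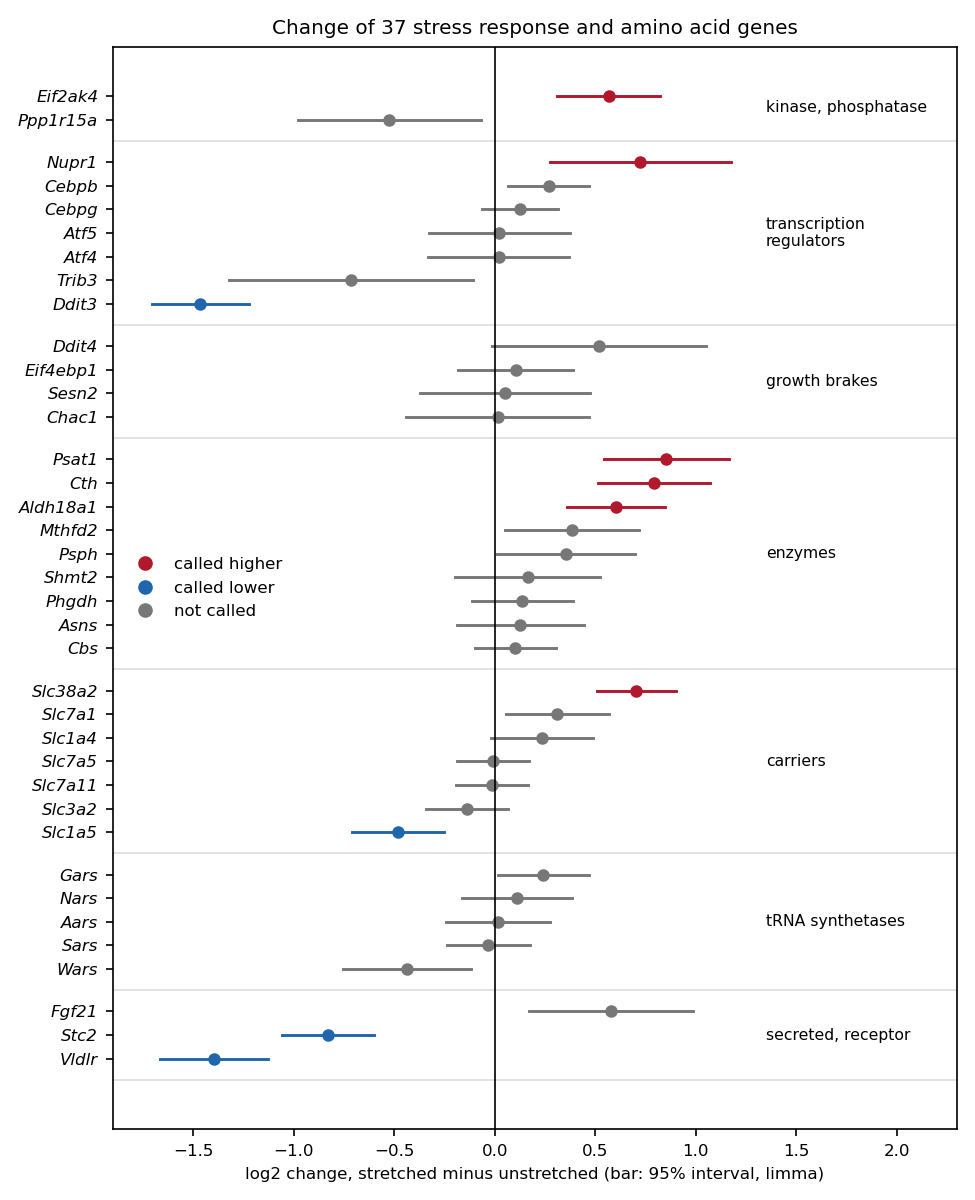
Log2 change (stretched minus unstretched, x axis) of the 37 genes, grouped by role, with 95% intervals from limma as bars and n = 3 arrays per group. Red points were called higher, blue points lower and grey points neither; Ddit3 and Vldlr lie farthest to the left, at -1.46 and -1.40, and Psat1 farthest to the right, at 0.85.

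The promoters of these genes are shown first because a known DNA element for Atf4 can be read from them. The C/EBP-ATF response element, here searched by its core TGATGNAA on either strand, binds Atf4 with a C/EBP partner, and CHOP can bind it too. RefSeq windows (GRCm38.p6) from 250 bases before to 50 after the start were matched for 33 of the 39 listed genes. The core was present for 11 of them (33.3%), against 4.51% of the 27025 genes with such a window. Many listed genes are known as Atf4 targets, so this share is not independent of how the list was chosen. The 11 were Nupr1, Vldlr, Fgf21, Chac1, Slc7a11, Asns, Trib3, Aars, Gars, Slc1a4 and Pycr1. Below, 80 bases around the core are printed in the direction of transcription for 2 genes that were called in opposite directions (Nupr1 and Vldlr) and 4 that were not called, with the core in capitals.
Nupr1 (chr7:126625537-126625616, minus strand): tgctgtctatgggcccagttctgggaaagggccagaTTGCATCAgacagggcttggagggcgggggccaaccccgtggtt
Vldlr (chr19:27216784-27216863, plus strand): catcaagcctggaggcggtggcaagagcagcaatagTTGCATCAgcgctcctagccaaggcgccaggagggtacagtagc
Fgf21 (chr7:45615586-45615665, minus strand): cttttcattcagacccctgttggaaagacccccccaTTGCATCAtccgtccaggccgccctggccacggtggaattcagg
Chac1 (chr2:119351013-119351092, plus strand): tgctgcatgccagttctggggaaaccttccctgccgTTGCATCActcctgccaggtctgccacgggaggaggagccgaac
Slc7a11 (chr3:50443627-50443706, minus strand): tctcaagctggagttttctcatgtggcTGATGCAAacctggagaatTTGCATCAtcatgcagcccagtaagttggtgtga
Asns (chr6:7693210-7693289, minus strand): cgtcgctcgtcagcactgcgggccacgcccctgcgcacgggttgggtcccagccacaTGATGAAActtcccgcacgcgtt
Relative to the transcription start, the core began at position -110 in Nupr1, -200 in Vldlr, -139 in Fgf21, -193 in Chac1 and -23 in Asns, and at both -66 and -47 in Slc7a11. Vldlr has 2 annotated starts, and the window of the other one had no match. Of the called genes with a window, Ddit3, Stc2, Psat1, Slc38a2, Aldh18a1 and Eif2ak4 had no match, which says only that these letters are not in the window. The element of endoplasmic reticulum stress, CCAAT followed after 9 bases by CCACG on either strand, was found for 0 of the 33 and for 0.137% of all genes with a window.

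At the top of the pathway, the kinase gene rose and the phosphatase subunit gene was not called. Eif2ak4 had log2 values of 6.54, 6.15 and 6.31 on the unstretched arrays and 6.94, 6.74 and 7.02 on the stretched arrays. All stretched values lay above all unstretched ones, and Eif2ak4 rose by 0.57 (SE 0.12, limma adjusted p = 0.00819). A second, dimmer probe set of Eif2ak4 pointed the other way, with a log2 change of -0.47 (SE 0.19, limma adjusted p = 0.147 over all 34945 probe sets), and with both probe sets averaged the change was 0.05 (adjusted p = 0.799). Ppp1r15a, whose product (GADD34) directs dephosphorylation of eIF2, stood at 8.92, 8.87 and 8.16 unstretched and 8.34, 8.30 and 7.74 stretched. The groups overlapped through unstretched replicate 3, the change was -0.52 (SE 0.21, adjusted p = 0.124), and without that array it was -0.77 (adjusted p = 0.0121). Stretched replicate 3, also the lowest of its group, stayed in that fit, which leaves the groups unbalanced.

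Among the transcription regulators the largest change was in Ddit3, the pro-apoptotic factor CHOP. Its log2 values were 10.57, 10.52 and 10.38 in unstretched and 9.19, 9.07 and 8.81 in stretched cells. All stretched values lay below all unstretched ones, by more than the spread within either group, and Ddit3 was 2.76-fold lower (log2 change -1.46, SE 0.11, limma adjusted p = 3.07e-05). Its other probe set also fell, with a change of -0.87 (SE 0.17, adjusted p = 0.00712 over all probe sets). Trib3, which CHOP and Atf4 induce and which feeds back on both, stood at 8.30, 8.27 and 7.32 unstretched and 7.55, 7.52 and 6.68 stretched. Replicate 3 was far below the others in each group, the groups overlapped, and the change of -0.71 (SE 0.27) did not pass (adjusted p = 0.116). Without unstretched replicate 3 it was -1.04 (limma adjusted p = 0.0123), but the low stretched replicate 3 stayed in that fit, which leaves the groups unbalanced.

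Atf4 itself gave discordant probe sets. The brightest one read 10.71, 10.62 and 10.14 in unstretched and 10.69, 10.61 and 10.22 in stretched cells, values that interleave (log2 change 0.02, SE 0.16, 95% interval -0.33 to 0.37, limma adjusted p = 0.956). The sign of this small change flipped when arrays were quantile normalized again (-0.06) or adjusted by cyclic loess (-0.05). A probe set whose suffix (_x_at) marks probes that may bind other transcripts read 8.90, 8.96 and 8.50 unstretched and 9.86, 9.82 and 9.64 stretched. It did not overlap between groups and rose by 0.99 (SE 0.13, adjusted p = 9.43e-04 over all probe sets). The dimmest of the 3 probe sets of Atf4 had a change of -0.08 (SE 0.09, adjusted p = 0.618). Which of them reads the Atf4 mRNA best was not tested.

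Nupr1, a small stress-induced chromatin protein, moved opposite to Ddit3. It read 8.37, 8.21 and 7.76 unstretched and 9.31, 8.74 and 8.46 stretched, so that the lowest stretched array lay just above the highest unstretched one. Nupr1 rose by 0.72 (SE 0.20, limma adjusted p = 0.0361). The call ended without unstretched replicate 2 (adjusted p = 0.0717) or 3 (0.0991) and without stretched replicate 1 (0.114) or 2 (0.0696), and with quantile normalization again (0.0613) or cyclic loess (0.0530). It also ended with its probe sets averaged (0.155) and with an intensity trend and robust prior (0.0856). Its other probe set had a change of 0.27 (SE 0.21). Cebpb, a partner of Atf4, had a change of 0.27 without overlap between groups (SE 0.09, adjusted p = 0.0785), and was called without unstretched replicate 3 (adjusted p = 0.0287), without dim genes (0.0477), with an intensity trend and robust prior (0.0183) and with its probe sets averaged (0.0351). Cebpg and Atf5, bZIP factors of the same network, did not pass, with changes of 0.12 and 0.02.

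**Figure D2:**
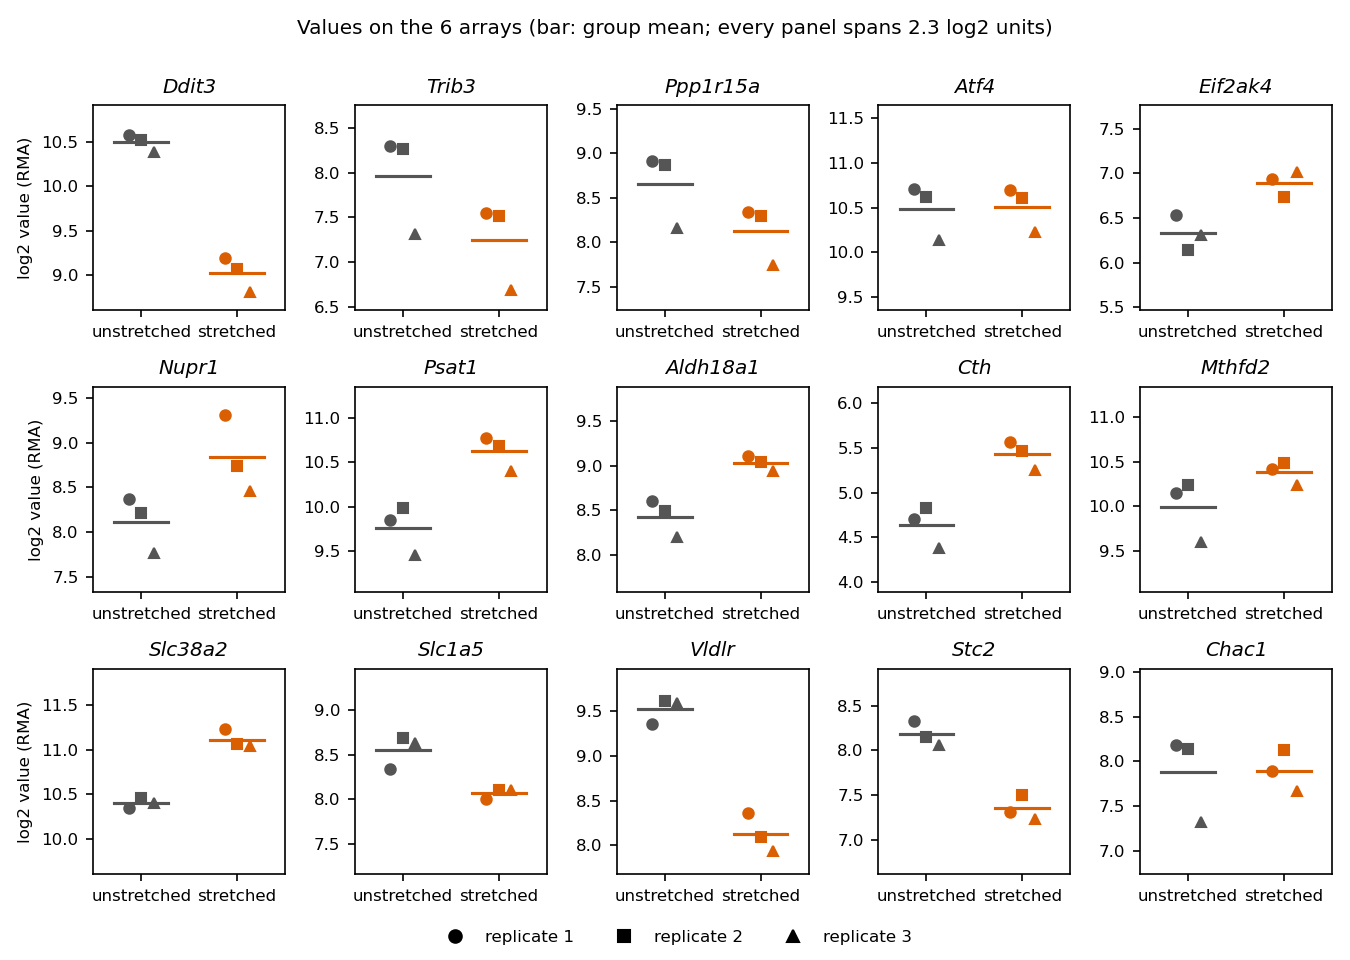
Log2 value (y axis) of 15 genes on each of the 6 arrays, unstretched in grey and stretched in orange, with the replicate number as the marker shape and the group mean as a bar. Ddit3, Vldlr and Stc2 separate downward and Psat1, Cth and Slc38a2 upward, while in Trib3, Ppp1r15a, Atf4 and Chac1 replicate 3 (triangles) lies lowest in each group.

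None of the 4 genes that brake growth and translation was called by limma, against 14.7% of all genes, and at an unadjusted p under 0.05 the count was also 0. Ddit4, an inhibitor of mTORC1, read 9.46, 9.36 and 10.36 unstretched and 10.20, 9.94 and 10.60 stretched. Here replicate 3 was the highest in each group, the change was 0.52 (SE 0.24, limma adjusted p = 0.189), and Ddit4 was called without unstretched replicate 3 (0.84, adjusted p = 0.00823). That fit kept the high stretched replicate 3, which leaves the groups unbalanced. Chac1, which degrades glutathione and is a sensitive target of Atf4, had a change of 0.02 with a 95% interval of -0.44 to 0.47, so that a change of either sign within that interval is not resolved. The leucine sensor Sesn2 and the translation repressor Eif4ebp1 had changes of 0.05 (SE 0.19) and 0.10 (SE 0.13).

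Of the 9 enzymes of amino acid synthesis measured, 3 rose (33.3%, against 7.98% of all genes) and 0 fell (against 6.76%). All but Cth and Cbs lay above the median gene, and of all 9097 genes above it 1298 were called higher and 956 lower. All 9 had a positive change as deposited, as did 8450 of all 18193 genes, with a median of 0.35 against -0.02. Without unstretched replicate 3, but with the stretched one kept, the changes of Asns (-0.010) and Shmt2 (-0.0084) were not positive. A dimmer probe set each of Shmt2 (-0.13) and Cbs (-0.03) also had a negative change. Psat1, the aminotransferase of serine synthesis, read 9.85, 9.99 and 9.46 unstretched and 10.77, 10.68 and 10.41 stretched. The groups were clearly apart, and Psat1 rose by 0.85 (SE 0.14, limma adjusted p = 0.00271), a level 1.81-fold higher, with its other probe set at 0.83 (SE 0.13). Cth, the cystathionine lyase that makes cysteine, read 4.71, 4.83 and 4.37 unstretched and 5.57, 5.46 and 5.26 stretched. Cth rose by 0.79 (SE 0.13, adjusted p = 0.00216), although its level lay below that of the median gene, where signal over background is unknown. Aldh18a1, which starts proline synthesis from glutamate, read 8.60, 8.49 and 8.20 unstretched and 9.11, 9.05 and 8.95 stretched. Aldh18a1 rose by 0.60 (SE 0.11, adjusted p = 0.00474), 1 of its 4 other probe sets was called too, and the call ended with all of them averaged (0.39, adjusted p = 0.0535).

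The other steps of serine and folate metabolism were not called. Phgdh, which commits glycolytic carbon to serine, had a change of 0.14 (SE 0.11), and Psph, the last step, one of 0.35 (SE 0.15, limma adjusted p = 0.164). The mitochondrial folate enzymes Shmt2 and Mthfd2 had changes of 0.16 (SE 0.16) and 0.38 (SE 0.15, adjusted p = 0.125), the latter without overlap between groups. Asparagine synthetase (Asns), a classical readout of amino acid shortage, read 10.35, 10.27 and 9.90 unstretched and 10.47, 10.41 and 10.02 stretched. These overlap, and Asns had a change of 0.13 (SE 0.14, adjusted p = 0.626). Cbs, the enzyme before Cth, had a change of 0.10 (SE 0.09, adjusted p = 0.527).

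Of the 7 amino acid carriers, 1 rose and 1 fell (14.3% each, against 7.98% and 6.76% of all genes). Slc38a2, a sodium-coupled carrier of small neutral amino acids (SNAT2), read 10.35, 10.46 and 10.41 unstretched and 11.23, 11.06 and 11.04 stretched. The arrays of each group lay close together, and Slc38a2 rose by 0.71 (SE 0.09, limma adjusted p = 5.20e-04). Its other probe sets, both dimmer, were not called, with changes of 0.13 (SE 0.08) and 0.08 (SE 0.09), and averaged over all 3 the change was 0.31 (adjusted p = 0.0203). Slc1a5, the glutamine carrier ASCT2, read 8.34, 8.69 and 8.63 unstretched and 8.001, 8.10 and 8.11 stretched. All stretched values were lower: Slc1a5 fell by 0.48 (SE 0.10, adjusted p = 0.0108), with an adjusted p of 0.0507 without stretched replicate 1.

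The exchanger subunits were not called. Slc7a5, the leucine carrier LAT1, had a change of -0.01 (95% interval -0.19 to 0.17), and its heavy chain Slc3a2 one of -0.14 (interval -0.34 to 0.07). The cystine carrier Slc7a11 had a change of -0.01 at a level below the median gene. The signs of Slc7a5 and Slc7a11 flipped with arrays centred on their medians, to 0.02 in each. The cationic carrier Slc7a1 did not overlap between groups at 0.31 (SE 0.12, limma adjusted p = 0.104), and another of its probe sets rose by 0.50 (SE 0.12, adjusted p = 0.0230 over all probe sets). Slc1a4, a neutral carrier, had a change of 0.24 (SE 0.11, adjusted p = 0.211).

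The 5 aminoacyl-tRNA synthetases, which charge tRNAs with amino acids, gave 0 calls in limma, against 14.7% of all genes, and 2 unadjusted p-values under 0.05. Gars (glycine) had a change of 0.24 (SE 0.10, limma adjusted p = 0.151) and Nars (asparagine) one of 0.11 (SE 0.12). Aars (alanine) and Sars (serine) had changes of 0.01 and -0.03, with the sign of Aars turned by quantile normalization again (-0.06) and cyclic loess (-0.06). Wars (tryptophan), also known to respond to interferon, read 8.66, 8.43 and 8.07 unstretched and 8.03, 8.07 and 7.75 stretched. Its change of -0.43 (SE 0.14) did not pass as deposited (adjusted p = 0.0698). Wars was called after quantile normalization again (-0.52, adjusted p = 0.0379) or cyclic loess (-0.50, adjusted p = 0.0452) and without unstretched replicate 3 (-0.59, adjusted p = 0.0108). The last of these fits kept stretched replicate 3, the lowest of its group, which leaves the groups unbalanced.

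Of the secreted factors and the receptor, Vldlr and Stc2 fell. Vldlr, a lipoprotein receptor that Atf4 is known to raise under stress, read 9.36, 9.62 and 9.60 unstretched and 8.37, 8.09 and 7.93 stretched. No values came near each other between the groups, and Vldlr was 2.63-fold lower (log2 change -1.40, SE 0.12, limma adjusted p = 6.70e-05). All 6 of its probe sets had negative changes, from -1.40 for the brightest to -0.32 for the dimmest, and 5 were called. The brightest carries the _x_at suffix, and the next one without it had a change of -1.23. Averaged over all 6 the change was -0.86 (adjusted p = 7.02e-04). Stc2, a secreted glycoprotein hormone of calcium and stress biology, read 8.33, 8.15 and 8.06 unstretched and 7.31, 7.504 and 7.24 stretched. Stc2 fell by 0.83 (SE 0.10, adjusted p = 5.01e-04), and its 3 probe sets were all called lower. Fgf21, a stress-induced hormone, read 4.90, 4.81 and 4.17 unstretched and 5.50, 5.03 and 5.09 stretched, a dim signal without overlap between groups and a change of 0.58 (SE 0.18, adjusted p = 0.0603). Fgf21 was called without unstretched replicate 1 (adjusted p = 0.0439) and with arrays centred on their medians (0.0498).

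**Figure D3:**
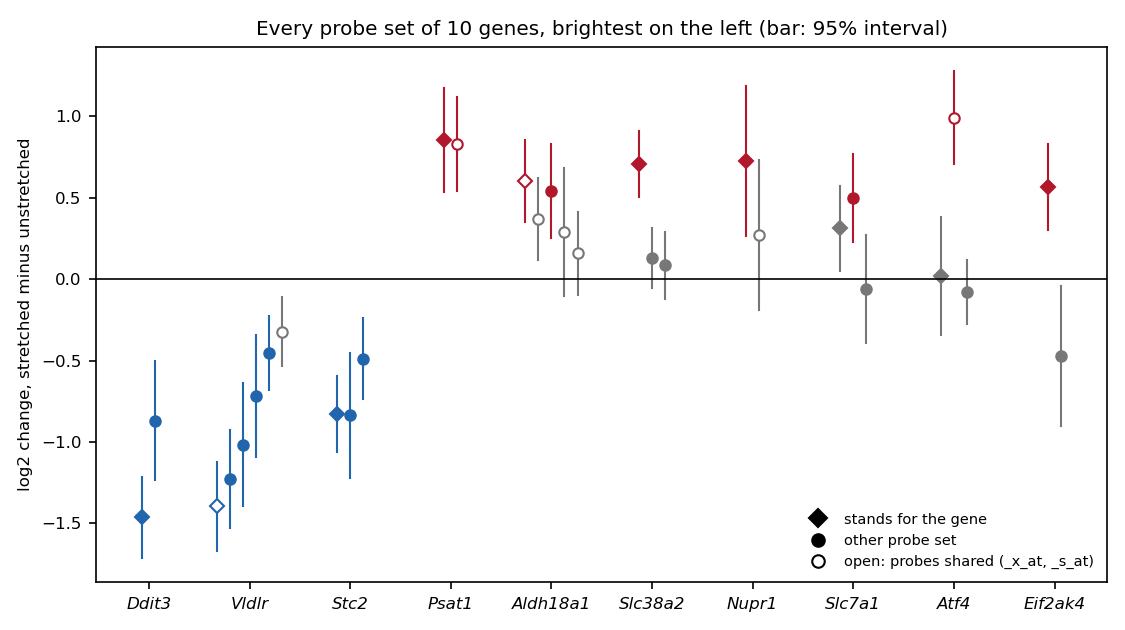
Log2 change (y axis) of every probe set of 10 genes, ordered from the brightest on the left of each gene, with 95% intervals as bars, diamonds for the probe set that stands for the gene and open markers for probe sets with an _x_at or _s_at suffix. Ddit3, Vldlr, Stc2 and Psat1 show a single sign, while Atf4 ranges from -0.08 to 0.99 and Eif2ak4 from -0.47 to 0.57; colour marks calls over all probe sets.

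The members also shared a pattern between replicates that was seen within each group. In 24 of the 37 (64.9%) replicate 3 was the lowest array of both groups, against 18.3% of all genes. Replicate 1 and replicate 2 were each lowest in both groups in 2 members. In the 24 members replicate 3 lay between 0.04 and 0.97 below the mean of the other two arrays when unstretched, and between 0.08 and 0.85 below it when stretched. The deepest gaps were in Trib3, at -0.97 and -0.85. Atf4 (-0.52 and -0.43), Asns (-0.41 and -0.42) and Ppp1r15a (-0.74 and -0.57) lay low there too, while Ddit4 (0.95 and 0.53) and Sesn2 (0.48 and 0.52) were highest on replicate 3 in both groups. In Ddit3 the gaps were -0.17 and -0.32, next to its change of -1.46 with stretch. The median SD within groups was 0.189 for the 32 bright members, against 0.115 for all genes above the median gene. The labels do not say what the replicate numbers share, and the cause was not tested.

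**Figure D4:**
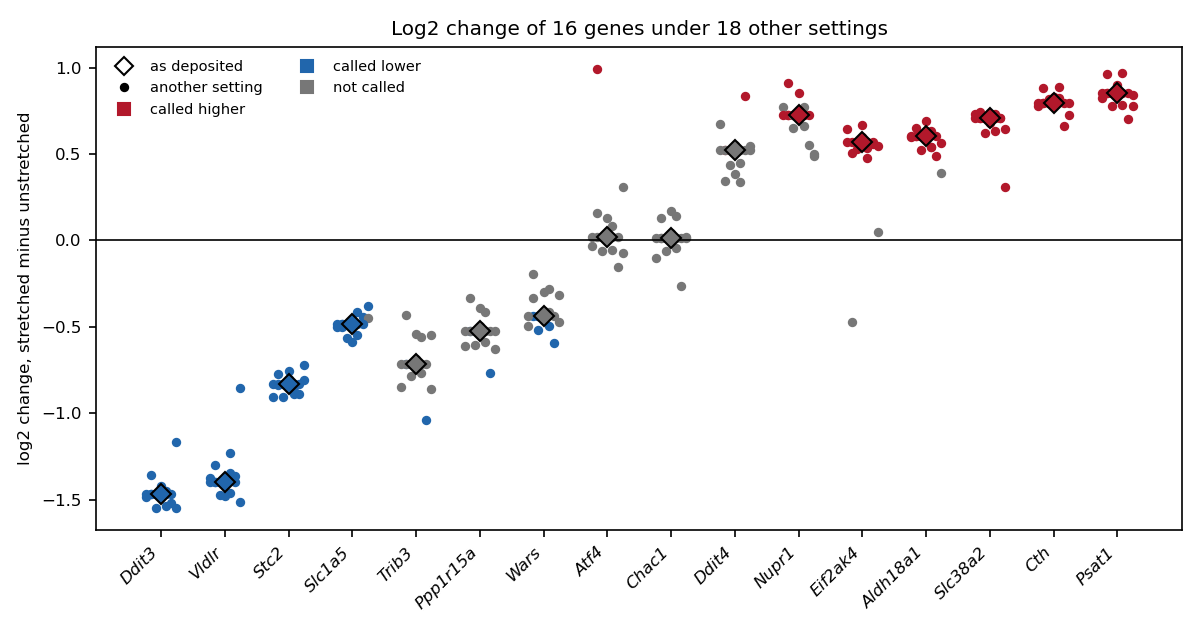
Log2 change (y axis) of 16 genes as deposited (diamonds) and under 18 other settings (dots, spread sideways for sight), coloured by the call in that setting. Ddit3, Vldlr, Stc2, Slc38a2, Cth and Psat1 are called in every setting that reads them, whereas Nupr1 and Eif2ak4 lose the call in some and Trib3, Ppp1r15a and Wars gain it in some.

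Related genes that are not on the list were read beside it, in 7 further groups with 151 genes measured, of which 17 rose and 18 fell. That is 23.2% called, against 14.7% of all genes and 24.8% of the genes above the median gene. Over all genes 7.98% were called higher and 6.76% lower, and of the 9097 above the median gene 1298 were called higher and 956 lower. Without stretched replicate 1 or 2, 9 of them were called higher. Of 15 other eIF2 kinases, eIF2 and eIF2B subunits and regulators, 2 rose and 0 fell, 13.3% in all against 14.7% of all genes. The 2 were the double-stranded RNA kinase Eif2ak2 (0.34, SE 0.09) and Eif2b4 (0.38, SE 0.10). The Eif2ak2 call ended without unstretched replicate 1 (limma adjusted p = 0.0536), 2 (0.0504) or 3 (0.0697) or stretched replicate 1 (0.0896) or 2 (0.114). That of Eif2b4 ended without unstretched replicate 2 (0.0933) or stretched replicate 1 (0.101) or 2 (0.105). The endoplasmic reticulum kinase Eif2ak3 (PERK) had a change of 0.01 (SE 0.09), whose sign turned with quantile normalization again (-0.06) and cyclic loess (-0.05). Its probe sets differed: the one with the largest SD had a change of -0.39 (limma adjusted p = 0.0726), and their average one of -0.13 (0.365). Of 27 other genes linked to Atf4 or CHOP, 1 rose (3.70%, against 7.98% of all genes) and 7 fell (25.9%, against 6.76%), and 4 fell without unstretched replicate 1 or without stretched replicate 3. Ndrg1 fell by 0.69 (SE 0.09), the autophagy receptor Sqstm1 fell by 0.63 (SE 0.11), the mitochondrial synthetase gene Cars2 fell by 0.54 (SE 0.09), and the AP-1 repressor Jdp2 rose by 0.43 (SE 0.09); 2 were called higher without unstretched replicate 2.

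The chaperone arm of the unfolded protein response is driven by Atf6 and Xbp1. Of its 20 genes measured 4 rose and 0 fell, with a median change of 0.25. Thus 20.0% were called higher, against 7.98% of all genes. All but Derl3 lay above the median gene, and of all 9097 genes above it 1298 were called higher. Manf rose by 0.52 (SE 0.09) and Hspa5, the chaperone BiP, rose by 0.50 (SE 0.11). Hyou1 rose by 0.36 (SE 0.09) and the ubiquitin ligase gene Syvn1 by 0.36 (SE 0.10). The Hyou1 call ended without unstretched replicate 1 (limma adjusted p = 0.0543) or 2 (0.0523) and without stretched replicate 1 (0.0745) or 2 (0.0582), which left 2 called in each case, and its probe set without shared probes had a change of -0.02. That of Syvn1 ended without unstretched replicate 1 (0.112) or 2 (0.119) and without stretched replicate 1 (0.105), 2 (0.0616) or 3 (0.134).

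Among 26 other enzymes of amino acid and one-carbon metabolism, 4 rose and 1 fell, 19.2% in all against 14.7% of all genes. The transaminases Gpt2 and Bcat1 rose by 0.74 (SE 0.12) and 0.60 (SE 0.08), and both subunits of glutamate-cysteine ligase rose, Gclm by 0.44 (SE 0.09) and Gclc by 0.38 (SE 0.08). Got1, an aspartate transaminase, fell by 0.45 (SE 0.09), and 2 were called lower without unstretched replicate 1. Of 25 other carriers 2 rose and 2 fell, 16% in all against 14.7% of all genes. Slc7a2, which imports arginine and lysine, fell by 1.67 (SE 0.11, limma adjusted p = 1.94e-05), and its relative Slc7a6 rose by 0.70 (SE 0.10). The mitochondrial aspartate and glutamate carrier Slc25a12 fell by 0.32 (SE 0.09) and the taurine carrier Slc6a6 rose by 0.30 (SE 0.09). The Slc6a6 call ended without any 1 of the 6 arrays (adjusted p from 0.0526 to 0.181), and that of Slc25a12 without unstretched replicate 2 (0.0943) or stretched replicate 1 (0.106), 2 (0.0640) or 3 (0.0889).

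Of 15 other cytosolic synthetases 2 rose and 1 fell, 20.0% in all against 14.7% of all genes and 24.8% of those above the median gene. Iars (isoleucine) rose by 0.51 (SE 0.13) and Mars1 (methionine) by 0.44 (SE 0.12), while Tarsl2, a threonine synthetase paralog, fell by 0.49 (SE 0.09). The Iars call ended without unstretched replicate 1 (limma adjusted p = 0.0507) or 3 (0.0580) or stretched replicate 1 (0.0916) or 2 (0.0723). The Mars1 call ended without unstretched replicate 2 (0.110) or 3 (0.0891) or stretched replicate 1 (0.132) or 2 (0.105). Genes of mTORC1 and amino acid sensing at the lysosome gave 2 rises (8.70%, against 7.98% of all genes) and 7 falls (30.4%, against 6.76%) among 23 measured. There was 1 rise without unstretched replicate 2 or stretched replicate 1 or 2. In all 39.1% were called, against 24.8% of the genes above the median gene. The GTPase gene Rragd fell by 1.71 (SE 0.15), the p53-induced sestrin Sesn1 fell by 0.64 (SE 0.10) and the lysosomal anchor Lamtor1 fell by 0.55 (SE 0.08). Castor2, a relative of the arginine sensor, rose by 0.80 (SE 0.09, limma adjusted p = 3.27e-04), and Nprl2, a subunit of the GATOR1 complex that restrains mTORC1, rose by 0.45 (SE 0.11, limma adjusted p = 0.0237). The Nprl2 call ended without unstretched replicate 2 (0.0784) or stretched replicate 1 (0.102) or 2 (0.0894). Among the genes of these 7 groups named here, quantile normalization again ended the calls of Eif2ak2 (adjusted p = 0.0835), Eif2b4 (0.0558), Syvn1 (0.0900), Mars1 (0.0738) and Slc6a6 (0.115).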

How the data were processed

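RNA of 6 samples of SVI mouse podocytes, 3 unstretched and 3 stretched by their titles, was measured on Affymetrix arrays. What the authors deposited is 1 log2 value for each probe set and array, made with RMA per the submitters' processing notes. Its version is not given in the sources used here. RMA adjusts arrays towards a common distribution and compresses changes of dim probe sets. The deposited values still differed in spread, with an SD of 2.03 to 2.06 on unstretched and 2.08 to 2.10 on stretched arrays. Their medians were 4.961 to 4.982 unstretched and 4.923 to 4.957 stretched. The part of this difference in the results was not tested. The arrays' number limits the precision, and signal over background is unknown.

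Of 45101 probe sets, 64 controls were left out. The platform annotation gave 34945 a single symbol and 932 several, and did not list 9160. All 37 members' symbols are in the RefSeq table of GRCm38.p6, and 2 symbols of other lists were matched through synonyms. Each of 18193 genes was tested by its brightest probe set with limma 3.58.1 (lmFit, eBayes) in R 4.3.3, without covariates, with genome-wide Benjamini-Hochberg adjustment and a threshold of 0.05. The steps were tested on simulated data.

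Members and lists were chosen with earlier results of these data known. Values on every array were given for called members and for Atf4, Ddit3, Eif2ak4 and Ppp1r15a; those of Trib3, Ddit4, Asns, Wars and Fgf21 were added after the values were seen. Of each further list up to 4 called genes by size of the moderated statistic are named, or every one where 5 or fewer were called; Eif2ak3 and Nprl2 were added after their values were seen. The results were recomputed with each array left out, with a block on the replicate number (fixed, then random), with arrays scaled in other ways, with dim genes removed, with probe sets averaged or picked differently, and with a trended prior or a minimum fold. A choice of probe sets without shared probes was added after seeing the data.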

Additional observations from a re-analysis of the deposited data

How the results depend on the processing

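Of the 10 called members, Ddit3, Vldlr, Stc2, Slc38a2, Cth and Psat1 (6) kept direction and call in each of the alternatives that read them, and 8 kept them without any 1 array. Over all members and named genes of other lists, 997 of 1164 values kept direction and call, 94 lost the call, 27 gained it and 46 changed sign, 0 of these with a call. With the replicate number as a fixed replicate block, members called higher numbered 11 and members called lower 7. Over all genes 1683 were called higher and 1419 lower with that block, 17.1% in all. Not called as deposited but passing limma there were Trib3 (adjusted p = 6.74e-04), Ppp1r15a (0.00335), Wars (0.0123) and Ddit4 (0.0101). The same held for Fgf21 (limma adjusted p = 0.0130), Mthfd2 (0.0294), Slc7a1 (0.0305) and Psph (0.0325). Same-numbered arrays' deviations from their group means correlated by 0.02, 0.15 and 0.28, and unstretched replicate 1 correlated best with stretched replicate 2 (0.11), so the numbers were not taken as pairs. With a minimum fold change of 1.2, 3 members were called higher and 3 lower, and calls in the other gene lists numbered 4 higher and 3 lower. Without any 1 array, members called higher ranged from 5 to 7 and lower from 3 to 7, and the other gene lists gave 9 to 16 higher and 13 to 18 lower. Over all genes the calls numbered 290 higher and 244 lower with the minimum fold change, and 872 and 789, 1086 and 780, and 983 and 767 without stretched replicate 1, 2 and 3. No scaling moved the median change of all genes far: it was -0.012 after quantile normalization again, 0.013 with median centring and -0.0063 with cyclic loess. The balance of calls did move, from 1452 higher and 1229 lower as deposited to 1669 and 1025 with median centring. It was 1147 and 1546 after quantile normalization again and 1191 and 1483 with cyclic loess.

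The values that changed sign are given here, and none of them was called. Quantile normalization again gave -0.061 for Atf4, -0.053 for Atf5, -0.062 for Chac1, -0.028 for Sesn2, 0.025 for Slc7a11, -0.064 for Aars and -0.059 for Eif2ak3, and cyclic loess -0.053, -0.044, -0.043, -0.0041, 0.027, -0.058 and -0.052 in the same order. Median centring gave 0.016 for Slc7a11 and 0.021 for Slc7a5. Averaged probe sets gave -0.12 for Aars and -0.13 for Eif2ak3, and the probe set with the largest SD gave -0.26 for Aars, -0.0046 for Cebpg, -0.47 for Eif2ak4 and -0.39 for Eif2ak3. Probe sets without shared probes gave -0.017 for Hyou1. With each array left out in turn, signs changed for 11 members, whose values ran from -0.16 to 0.16 for Atf4, -0.11 to 0.22 for Atf5, -0.27 to 0.17 for Chac1, -0.069 to 0.11 for Aars, -0.16 to 0.21 for Sesn2, -0.040 to 0.023 for Slc7a11, -0.045 to 0.019 for Slc7a5, -0.010 to 0.27 for Asns, -0.0084 to 0.32 for Shmt2, -0.0080 to 0.23 for Eif4ebp1 and -0.085 to 0.034 for Sars; those of Eif2ak3 ran from -0.040 to 0.069. The cause was not tested. Dim genes such as Slc7a11, Cth and Fgf21 may sit near background, where changes are understated.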
